A study of Stylosanthes guianensis with 9 samples.

Results

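The genes described here were transcripts of stylo root tips whose level fell from 24 h to 48 h after germination and fell again from 48 h to 72 h. They were chosen by a rule on the deposited RPKM values, which are reads scaled to the length of the gene and the reads of its library. The lowest 24 h library had to be at least 10 and at least 1.5 times the highest 48 h library. The lowest 48 h library had to be above 1 and at least 1.5 times the higher of 72 h replicates 1 and 2. Of 54199 genes in the table, 75 met the rule (0.138%). The falls themselves therefore selected the members, and they are given as a description with no test.

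The libraries came from roots of Stylosanthes guianensis, a pasture legume. The plants were of genotype Reyan No. 2 and root tips were taken, by the series description. Seedlings were sampled at 24, 48 and 72 h after germination, 3 libraries were labelled for each time, and no treatment was named. Whether replicates were separate plantings, and how many tips were pooled, is not stated, so p-values cover only the spread among these libraries, and that spread may be technical.

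In the days after germination a root tip passes from using what the dry seed left to growing on its own. Part of the messenger RNA of a young seedling was made while the seed matured, and it is broken down as new transcripts are made. The root cap, the dividing zone and the elongating zone also take different shares of the tip as it grows. RNA of a whole tip cannot tell fewer cells of a type from less RNA per cell. RPKM is a share of the library, so a lower RPKM is a lower share and not by itself a lower amount. The IDs are those of assembled components and the files do not pair them with gene names or sequences. No gene function, tissue marker or sequence could therefore be given, and the root tip label was not checked against marker genes. By a fixed rule 2 IDs are named, and the other members are given by their rank in mean RPKM at 24 h, with rank 1 the highest.

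Reads per gene were recovered from the RPKM steps, and library totals lay between 28453545 and 37783453 reads. In every gene 72 h replicate 3 held at least as many reads as 72 h replicate 1, and the mean chi-square per gene between them was 0.0473. In the 8 other replicate pairs it was 43.3 to 158.3. The difference of these libraries was below the sampling noise, and their mean was counted as 1 sample, so n was 3, 3 and 2. Among the members, replicate 1 differed from that mean by at most 3.24%. Of the libraries, 24 h replicate 1 listed 24907 genes at 0 and 72 h replicate 2 listed 27888, while the other libraries listed 8585 to 12163. The rule reads the highest 72 h library, so no gene could become a member through a loss in 72 h replicate 2 alone. The median RPKM of the 9032 genes that reached 10 in every 24 h library was 26.5 to 27.7 at 24 h, 23.4 to 26.5 at 48 h and 25.4 in 72 h replicates 1 and 3. It was 22.1 in 72 h replicate 2.

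The members together lost most of their share of the library between 24 h and 48 h. They held 1.78%, 1.4% and 1.45% of the recovered reads in 24 h replicates 1, 2 and 3. At 48 h they held 0.299%, 0.324% and 0.318%. At 72 h they held 0.161% in replicate 1, 0.159% in replicate 3 and 0.0635% in replicate 2. The times did not overlap, and the widest 95% Wilson interval of these shares, which covers counting error only, spanned 0.00938 percentage points. As means the shares were 1.54% ± 0.206 (SD, n = 3), 0.314% ± 0.0131 (SD, n = 3) and 0.112% ± 0.0680 (SD, n = 2). The 5 members highest at 24 h held 63.0% to 65.9% of the members' reads at 24 h, 48.7% to 51.0% at 48 h and 49.3% in 72 h replicate 1. In 72 h replicate 2 they held 30.1%. Without these 5, the share of the other 70 members was 0.519% to 0.607% at 24 h, 0.153% to 0.162% at 48 h, and 0.0815% and 0.0444% in 72 h replicates 1 and 2. The rule required each member to fall at both steps, so these sums had to fall as well.

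**Figure D1:**
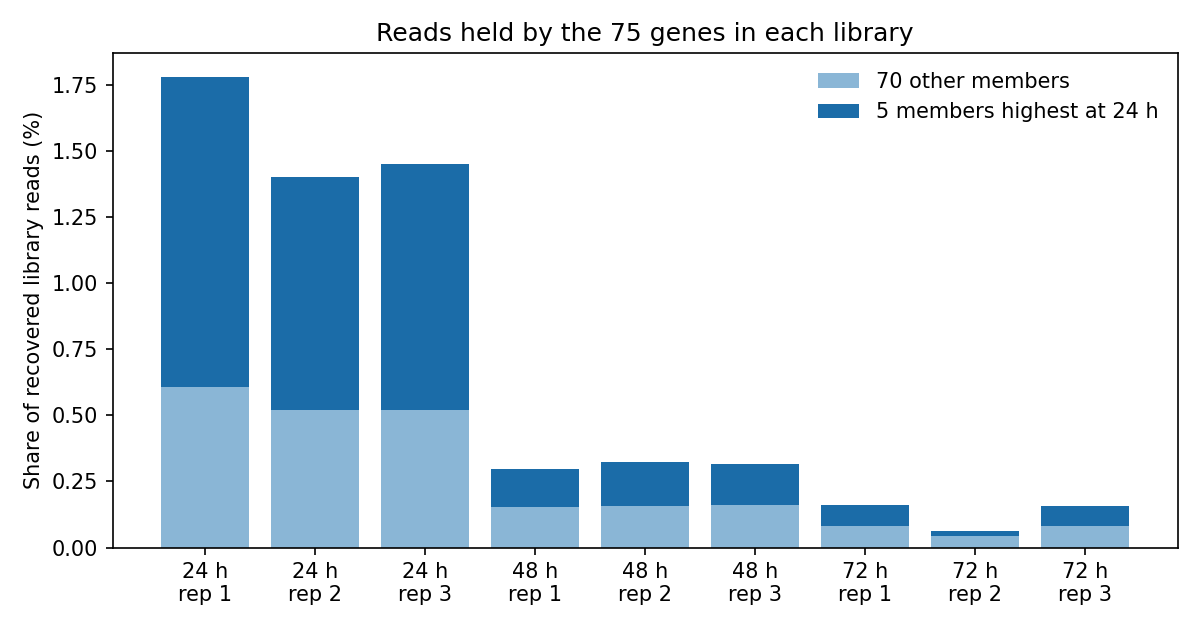
Share of recovered library reads (%) held by the 75 genes in each of the 9 libraries, as stacked bars for the 5 members highest at 24 h and the 70 others. The bars stand at 1.4% or more at 24 h, near 0.3% at 48 h and at 0.161% or less at 72 h, with 72 h replicate 2 the lowest (0.0635%) and 72 h replicate 3 a near copy of replicate 1.

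The gene c32021_g2 was the most abundant member at 24 h. Its RPKM was 3065, 2723 and 2366 in 24 h replicates 1, 2 and 3. It was 659.3, 742.8 and 736.9 at 48 h, and 368.9 in 72 h replicates 1 and 3 and 92.2 in replicate 2. No sample of one time reached a sample of the next, which the rule fixed for every member. The 72 h samples lay far apart, with replicate 2 the lower. The means of 2718 ± 349.7 (SD, n = 3), 713.0 ± 46.6 (SD, n = 3) and 230.5 ± 195.7 (SD, n = 2) made a 3.81-fold and then a 3.09-fold fall. The second fall was 1.93-fold against 72 h replicates 1 and 3 alone. At 72 h the gene still rested on 20357 reads in replicate 1 and on 3907 in replicate 2.

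The gene c25834_g3, at rank 4, had the largest total fall on the log2(RPKM + 1) scale (8.52 from 24 h to 72 h). Its RPKM was 1463, 955.8 and 1177 at 24 h. It was 13.89, 10.68 and 14.99 at 48 h, and 4.11 in 72 h replicates 1 and 3 and 1.03 in replicate 2. Here the first step removed nearly all of the level: 1.10% of the 24 h mean was left at 48 h and 0.214% at 72 h. The folds were 90.9 at the first step and 5.13 at the second, or 3.21 against 72 h replicates 1 and 3. The 48 h values rested on 719 to 1076 reads and the 72 h values on 292 reads in replicate 1 and 56 in replicate 2.

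The other members of the first 5 ranks showed both courses. The member at rank 2 stood at 2455, 1397 and 1856 RPKM at 24 h, at 48.6, 72.1 and 50.1 at 48 h, and at 13.9 and 8.68 in the 72 h samples. It fell steeply at the first step, 33.4-fold, and 5.04-fold at the second. Rank 3 stood at 1778, 1326 and 1364 RPKM, then at 348.3, 377.2 and 330.1, then at 193.6 in 72 h replicates 1 and 3 and at 42.1 in replicate 2. Its folds of 4.23 and 2.99, the second 1.82 against 72 h replicates 1 and 3, lay near those of c32021_g2. Rank 5 stood at 927.4, 683.0 and 973.3 RPKM at 24 h and at 52.3, 97.7 and 59.3 at 48 h. At 72 h it stood at 13.5 in replicates 1 and 3 and was listed at 0 in replicate 2, where 3 reads would have been 0.150 RPKM. Its folds of 12.3 and 10.3 were nearly equal, but the second was 5.17 without 72 h replicate 2.

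**Figure D2:**
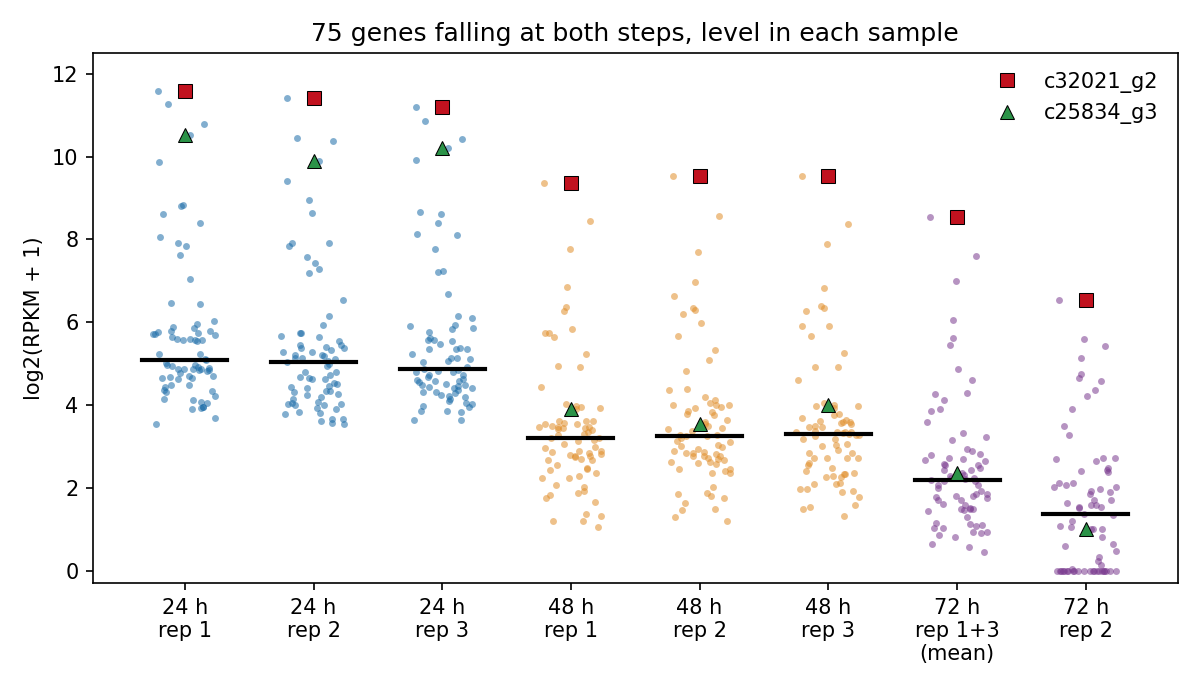
Level of each of the 75 genes, as log2(RPKM + 1), in the 8 samples, with 72 h replicates 1 and 3 averaged. Each dot is a gene, each black bar the median of the 75 genes, and the square and triangle are c32021_g2 and c25834_g3. The median RPKM of the members was 28.1 to 32.9 in the 24 h libraries, 8.24 to 8.91 at 48 h, 3.61 in 72 h replicate 1 and 1.57 in 72 h replicate 2.

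Most members were of moderate level at 24 h. The mean RPKM at 24 h ran from 11.6 to 2718 with a median of 31.7. Of the 75 members, 14 had a mean of at least 100, 7 lay between 50 and 100, 37 between 20 and 50, and 17 below 20. At 48 h the median of the means was 8.69, and 32 members still had a mean of at least 10. At 72 h the median was 2.56, 12 members had a mean of at least 10, and 14 had a mean below 1. In 72 h replicates 1 and 3 alone the median was 3.60, 14 members stood at 10 or more, and 8 stood below 1. The median member kept 26.9% of its 24 h mean at 48 h and 7.91% at 72 h. The reads behind these values were 166 to 139708 at 24 h, 34 to 41192 at 48 h and 12 to 20357 in 72 h replicate 1, so the low members at 72 h carry a wide counting error.

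The first fall was usually the larger, and its size varied more between members than that of the second. The ratio of the 24 h to the 48 h mean had a median of 3.72, with quartiles of 2.65 and 5.92 and a range of 1.73 to 136.5. The ratio of the 48 h to the 72 h mean had a median of 3.10, with quartiles of 2.50 and 4.49 and a range of 1.604 to 12.1. The first fold was the larger in 52 members and the second in 23. In 39 members the folds lay within 1.5 times of each other, in 17 the first was over 2 times the second, and in 8 the second was over 2 times the first. Of the difference in RPKM between 24 h and the mean of both 72 h samples, a median of 79.2% was lost by 48 h, with a range of 48.2% to 99.4%. Equal folds at both steps would also remove more RPKM at the first step, so this share does not compare the folds. For comparison, the 9032 genes that reached 10 in every 24 h library had median ratios of 1.04 at the first step and 1.06 at the second, the latter 0.978 against 72 h replicates 1 and 3 alone.

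The size of the second fall depended on 72 h replicate 2. Against 72 h replicates 1 and 3 alone, the second fold had a median of 2.19, quartiles of 1.88 and 2.90, and a range of 1.62 to 6.10. The first fold was then the larger in 66 members and the second in 9. A second fold of at least 3 was seen in 40 members with both 72 h samples and in 16 without replicate 2, and one of at least 5 in 14 and in 5. The second was over 2 times the first in 1 member without replicate 2, against 8 with it. Between 24 h and 48 h, 48 members fell at least 3-fold, 25 at least 5-fold and 15 at least 10-fold.

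**Figure D3:**
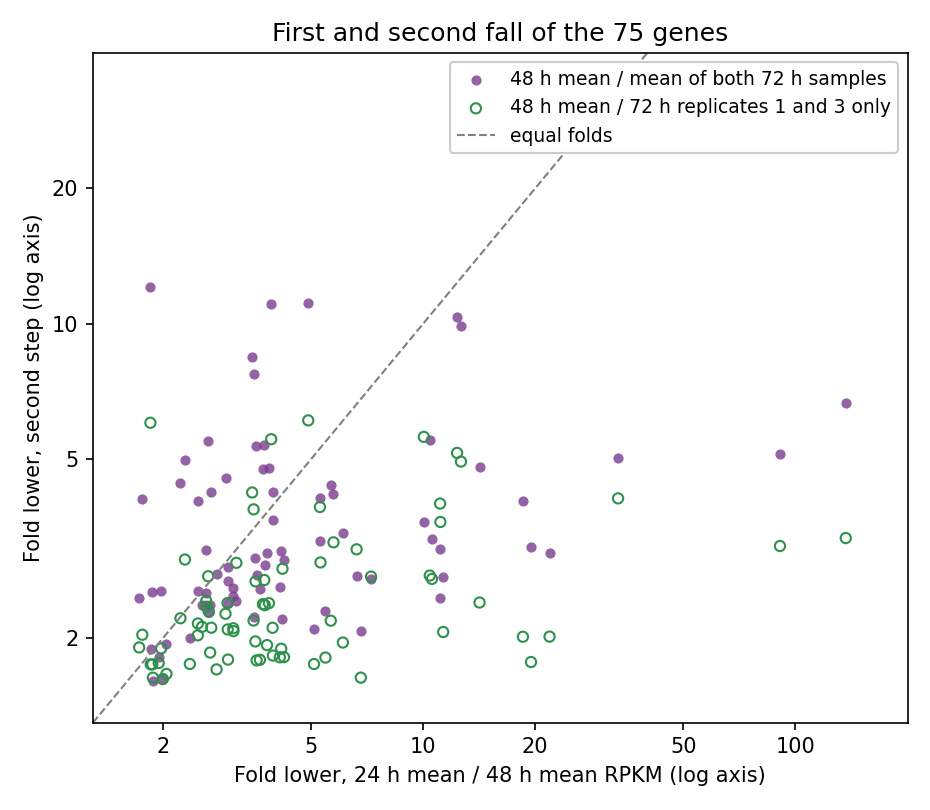
Fold lower at 48 h than at 24 h (x axis) against fold lower at 72 h than at 48 h (y axis) for the 75 genes, both as ratios of mean RPKM on log axes. Filled points use both 72 h samples (52 genes with the larger fold at the first step) and open circles use 72 h replicates 1 and 3 only (66 genes), and the dashed line marks equal folds.

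The extremes of the set show how unlike its members were in pace. The largest first fall was that of the member at rank 10. Its RPKM was 264.6, 228.7 and 279.6 at 24 h and 2.39, 1.47 and 1.80 at 48 h, a ratio of means of 136.5. Its total ratio of 912.6 was above the 466.6 of c25834_g3, which had the larger fall on the log2(RPKM + 1) scale. At 72 h it stood at 0.565 in replicates 1 and 3 and was listed at 0 in replicate 2, where 3 reads would have been 0.0924 RPKM. The smallest total fall, 3.02-fold, was that of the member at rank 18. Its RPKM was 56.9, 60.2 and 55.9 at 24 h, 29.5, 33.2 and 29.2 at 48 h, and 18.7 and 19.5 in the 72 h samples. These values lay close together within each time, with an SD of 2.27 at 24 h (n = 3), 2.21 at 48 h (n = 3) and 0.521 at 72 h (n = 2), and 72 h replicate 2 was not the lower one.

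A few members fell more at the second step than at the first, also without 72 h replicate 2. The member at rank 74 stood at 14.6, 11.7 and 11.4 RPKM at 24 h and at 5.83, 7.19 and 7.35 at 48 h. It then stood at 1.13 in 72 h replicates 1 and 3 and was listed at 0 in replicate 2. Its first fold was 1.85, and its second was 6.03 against replicates 1 and 3 and 12.1 with both 72 h samples. The member at rank 19 stood at 60.8, 41.3 and 59.8 RPKM, then at 8.89, 13.2 and 10.8, then at 1.80 in 72 h replicates 1 and 3 and at 0.176 in replicate 2. Its first fold was 4.92, and its second, 6.10 against replicates 1 and 3, was the highest of the set on that measure.

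Most members were lowest in 72 h replicate 2. In 66 of 75 members (88.0%) the RPKM was lower in 72 h replicate 2 than in replicates 1 and 3. Of the 9032 genes that reached 10 in every 24 h library, 69.0% were lower there. Replicate 2 listed 22 members at 0 (29.3%), against 184 of the 9032 genes (2.04%). The 564 genes that met the 24 h and 48 h conditions but not the second fold lay between, with 77.8% lower in replicate 2 and 8.33% at 0. These differences were not tested. The members had a lower level at 72 h than both groups, so the comparison is not at equal level at 72 h. The median of the 72 h means was 2.56 RPKM in the members, 7.35 in the 564 genes and 23.9 in the 9032 genes. The part of the lower 72 h level in these shares was not tested. Each of the 22 members stood at 15 to 353 reads in 72 h replicate 1. Their RPKM in replicates 1 and 3 was at least 3.94 times what 3 reads would have given in replicate 2, a limit that covers counting error only. The 22 had a median first fold of 3.80 and a median second fold of 2.54 against replicates 1 and 3. For the 53 members above 0 in replicate 2, the median second fold was 2.07 against replicates 1 and 3 and 2.69 with both samples. In these 53 the median ratio of replicate 2 to replicates 1 and 3 was 0.579, against 0.858 for the genes above 0 among the 9032.

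**Figure D4:**
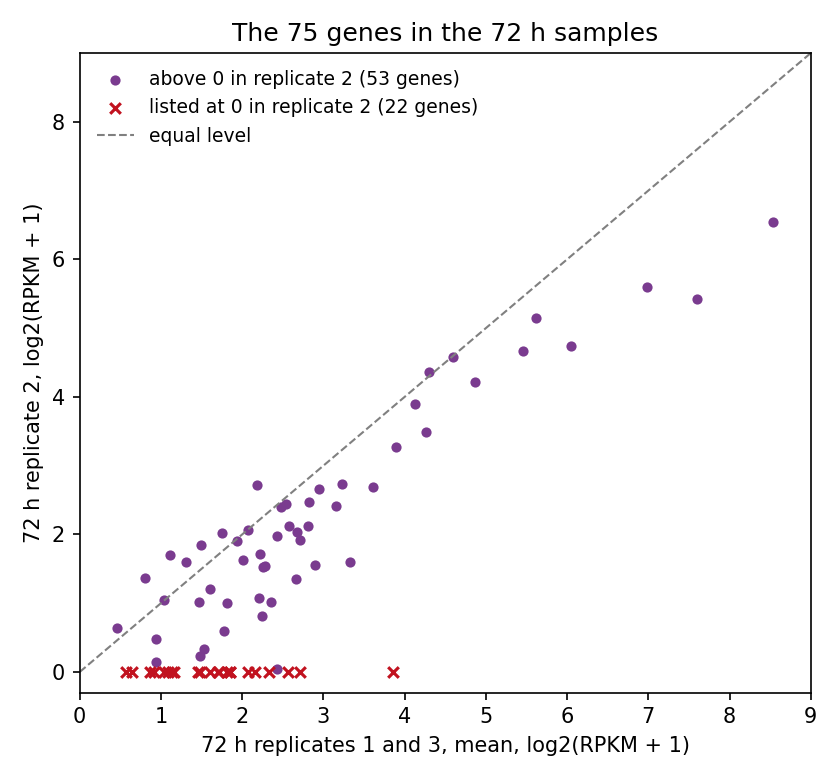
Level of the 75 genes in 72 h replicate 2 (y axis) against the mean of 72 h replicates 1 and 3 (x axis), both as log2(RPKM + 1). The dashed line marks equal levels, 66 genes lie below it, and the 22 crosses are genes listed at 0 in replicate 2.

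The rule kept only genes whose 24 h and 48 h libraries did not overlap, so a spread smaller than the first fall was fixed by it. The coefficient of variation at 24 h had a median of 16.9%, with 7 members above 30% and a maximum of 50.8%, and at 48 h it had a median of 12.8%. It was 14.3% and 10.3% over the 9032 genes. At 24 h the highest library was replicate 1 in 45 members and replicates 2 and 3 in 15 each. Over the 9032 genes replicate 1 was the highest in 36.4%, and over the 564 genes that met only the first step it was the highest in 62.1%. The higher level in 24 h replicate 1 was thus shared with these 564 genes. At 48 h replicate 2 was the highest in 38 members, replicate 3 in 25 and replicate 1 in 12. Over the 9032 genes it was replicate 3 in 58.8% and replicate 2 in 20.8%.

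The second condition of the rule removed most genes that had met the first. Of the 9032 genes, 758 fell by the required fold between 24 h and 48 h, and 639 of these stayed above 1 in every 48 h library. The 75 members were 11.7% of the 639. Against 72 h replicate 1 alone, 87 of the 639 would have passed the second fold, and against 72 h replicate 2 alone, 360. Of the 564 that did not become members, 285 passed against replicate 2 only, 12 against replicate 1 only and 267 against neither. The 564 had a median first fold of 3.04 and a median second fold of 1.29, or 1.05 against 72 h replicates 1 and 3. They had started at a median of 28.4 RPKM, close to the 31.7 of the members, and had reached a median of 8.50 at 48 h, close to the 8.69 of the members. The median levels of both groups at 24 h and at 48 h were thus alike. The median member kept 26.9% of its 24 h mean at 48 h, against 32.9% in the 564. No test of a difference was made, since the rule fixed it after 48 h. The mirror rule, with the times in reverse order, was met by 6 genes. It asked the lower of 72 h replicates 1 and 2 to be at least 10 and at least 1.5 times the highest 48 h library. It also asked for more than 1 RPKM in every 24 h library. Low values in 72 h replicate 2 therefore limit the mirror rule, while the members' rule reads the higher 72 h library. The counts of 6 and 75 are thus not a like comparison of rising and falling genes.

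Some members lay close to the thresholds. The smallest first fold by the rule, the lowest 24 h over the highest 48 h library, was 1.52 among members, and the nearest gene that failed on it alone had 1.499. The smallest second fold was 1.501 among members, and the nearest gene outside had 1.497. In 11 members the second fold by the rule was under 1.6, and 13 genes outside lay between 1.4 and 1.5. The lowest 24 h value of a member was 10.7, with 8.80 the nearest outside. The lowest 48 h value was 1.10, with 0.868 the nearest outside.

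In limma's fit over 28428 genes, 63 of the 75 members were called lower at 48 h than at 24 h at an adjusted p under 0.05, where the share of all genes called lower was 5.53%. All 75 were called lower at 72 h than at 24 h, where that share was 9.42%. Between 72 h and 48 h none of the 75 was called, and the share over all genes was 0%. In the same fit 75 members had an unadjusted p under 0.05 there, against 7.08% of all genes, and voom weights on the recovered reads called 0 members and 5 genes. With 72 h replicates 1 and 3 both left out, the members' median log2 change from 48 h to 72 h was -1.71. Over all genes it was -0.23, and both values rest on 72 h replicate 2 alone. All 75 members passed the filter of the fit because the rule required 10 RPKM at 24 h. These counts come from the contrasts that chose the members and support nothing about them. On the log2(RPKM + 1) scale the members' median change was -1.77 at the first step and -1.32 at the second, and the median over all genes was 0.0046 and -0.08. Without 72 h replicate 2 the second median was -0.90 for the members and 0.07, of opposite sign, for all genes.

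Gene length was not used by the rule. The recovered length, the shortest at which all 9 values of a gene are whole reads, ran from 242 to 3900 nucleotides in the members, with a median of 1209. It was 1358.5 in the 564 genes that met only the first step and 1588 in the 9032 genes. Of the members, 38.7% were shorter than 1000 nucleotides and 88.0% shorter than 2000, against 25.1% and 66.0% of the 9032 genes. Below 500 nucleotides the shares were alike, with 8% of the members and 7.11% of the 9032 genes. Across the 75 members, Spearman's rho between length and the first fold was -0.08, and between length and the second fold against 72 h replicates 1 and 3 it was -0.35. Between the first fold and that second fold it was 0.37. These are descriptions across genes, which share their libraries and are not replicates, and both folds share the 48 h means.

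Some members came from the same assembled component, so their sequences may be related and the authors' counting could split reads between them. The 75 members came from 70 components, of which 5 held 2 members each, and 28 members (37.3%) were the only gene of their component. Over the 9032 genes 36.6% were alone. The component of c32021_g2 held another member with 28.5, 20.3 and 22.8 RPKM at 24 h, 10.9, 6.22 and 10.2 at 48 h, and 3.87 and 1.92 in the 72 h samples. Its folds were 2.62 and 3.14, the second 2.35 against 72 h replicates 1 and 3. In a component of 3 genes, 2 were members, and the third had means that fell 2.59-fold and 3.59-fold but missed the rule. In another, 2 members fell 4.92-fold and 3.51-fold at the first step, while a gene of the same component stood at 42.3, 31.9 and 32.7 RPKM at 24 h and at 38.6, 40.2 and 40.3 at 48 h. Genes of a component therefore did not always move together. Of the 75 other genes in member components that reached 10 RPKM in every 24 h library, 13 (17.3%) met the conditions on 24 h and 48 h, against 7.07% of the 9032 genes. The means of 32 of them (42.7%) fell at both steps, against 36.6% of the 9032 genes.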

How the data were processed

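Stylo root tip libraries of 24, 48 and 72 h after germination were analysed. The deposited table gives RPKM in 9 library columns for 54199 genes, scaled by the authors from read counts. The submitters' processing notes list HTSeq 0.6.0. The aligner and assembly are not given in the sources used here. The members, lists and rules were chosen with earlier results of these data known. Whole reads were recovered as the shortest length up to 100000 nucleotides that made all 9 values whole, for all 54199 genes, and gave 99.8% to 99.9% of the library totals. Recovery and fit were tested on simulated data. A single limma fit (version 3.58.1, R 4.3.3) with an intensity trend compared the times over 8 samples on log2(RPKM + 1), a scale on which changes of low genes come out too small. It held the 28428 genes with 1 RPKM or more in 3 of 9 columns, and p was adjusted by Benjamini-Hochberg. The named IDs were the member highest at 24 h and the one with the largest total fall on that log2 scale. Gene lists could not be matched without names. The alternatives changed the pseudocount, filter, scaling, trend, samples, block, read weights and the rule's thresholds. Tables were made with Python 3.11.15 and pandas 2.3.3.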

Additional observations from a re-analysis of the deposited data

How the results depend on the processing

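The rule gave 75 genes, and 148 with a looser fold midway between 1 and 1.5, 22 with a fold of at least 2, 49 with a 24 h minimum of 20, and 127 with no 48 h minimum. Leaving out 1 library at a time gave 79 to 360, the highest without 72 h replicate 1, where replicate 2 alone stands for 72 h. After rescaling to equal medians 72 genes met the rule, 63 of them members. Members called lower at 48 h than at 24 h numbered 63, and 47 to 75 over all fits. Their median change there was -1.77, and -1.63 with median rescaling. All genes called lower there numbered 1571, and 797 to 2215 with 1 library left out (1039 without 24 h replicate 3, and 797, 844 and 914 without 48 h replicate 1, 2 and 3). For 72 h against 24 h all 75 members were called in every fit. All genes called lower there numbered 2679, 1319 with only the 2 times compared, 5623 without both 72 h replicates 1 and 3, 1471 when 24 h replicate 1 and 72 h replicate 2 were left out together, and 1241 to 2707 with 1 library left out (1241 without 72 h replicate 2, 1735 without 24 h replicate 3). For 72 h against 48 h limma called 0 members and 0 genes, also with any 1 library of 24 h or 48 h left out. Leaving out 72 h replicate 1 or 3 gave 0 and 0 too, but kept its near copy in the fit. It called 2 members and 5 genes with no filter, 4 and 10 with median rescaling, 7 and 18 with quantile normalization, 5 and 22 with all 9 columns, 63 and 2875 without both 72 h replicates 1 and 3, and 0 and 5 with voom weights. Where 1 sample was left at 72 h, its spread was taken from the other times. The median second change of members was -1.32, and -0.90 without 72 h replicate 2, where the median over all genes went from -0.08 to 0.07. With 72 h replicate 2 alone kept, the medians were -1.71 for members and -0.23 for all genes. For the replicate numbers, the mean of 72 h replicates 1 and 3 was numbered 1, so number 3 had no 72 h sample. The 2 samples at 72 h deviate from their mean by opposite amounts, so each correlation with them occurs with both signs. Samples that share a replicate number deviated from their means with correlations of -0.05 to 0.22, and the other pairs with -0.25 to 0.14. These ranges overlap and rest on 3, 3 and 2 samples, so they cannot decide whether the numbers pair the samples. With a replicate block, 63 members and 1536 of all genes were called lower for 48 h against 24 h. For 72 h against 24 h the block gave 75 members and 2545 genes, and for 72 h against 48 h 0 and 0. The cause of these differences was not tested. With 2 samples at 72 h, and as few as 12 reads for a member in 72 h replicate 1, the size of the second fall rests on few samples and reads.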
